A study of Mus musculus with 9 samples.

Results

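Immediate early genes are switched on within minutes of a stimulus, without new protein synthesis, because the factors that drive them (SRF, CREB and the ternary complex factors) already sit on or near their promoters. In sensory neurons, calcium entry and growth factor signalling through MAP kinases are known to switch them on, and many of their products are transcription factors that go on to change later genes. Their mRNAs are short-lived, so their levels follow recent signalling more closely than those of stable mRNAs. The 9 genes described here are Fos, Fosb and Junb (subunits of the AP-1 transcription factor), Egr1 and Egr3 (zinc finger factors), Nr4a1 (an orphan nuclear receptor), Arc (a synaptic scaffold protein), Ier2 (a nuclear protein) and Btg2 (an antiproliferative factor). They were chosen by name, with earlier results of these data known. Each was measured as its gene sum, the FPKM of all its annotated transcripts added up, where FPKM counts sequenced fragments relative to transcript length and to library size. All 9 were among the 21809 gene sums of the mRNA table and all 9 passed the filter of a mean of at least 0.1 FPKM, which left 16096 gene sums to test.

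RNA came from the trigeminal ganglion (TG), the ganglion of facial sensory neurons, of male wild-type C57BL/6 mice aged 8 weeks. Saline mice received 10 µl of saline into the temporomandibular joint (TMJ), and their 3 libraries are labelled day 3. CFA mice received 10 µl of complete Freund's adjuvant, an oil with killed mycobacteria that inflames the joint, at 5 mg/ml, and were taken on day 3 (CFA3D, replicates 1 to 3) or day 6 (CFA6D, replicates 4 to 6). Each of the 9 libraries pooled unilateral punches of TG from 3 mice, so n = 3 pools per group in every mean below, and every p-value measures the spread between pools. No saline libraries of day 6 were analysed here, so in CFA6D against saline the day and the treatment cannot be told apart.

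A rough estimate from the steps of low FPKM values put 30.0 to 42.2 M read pairs behind the FPKM of each library. By it, a single pair on 1 kb of transcript corresponds to 0.0237 to 0.0333 FPKM. The paper's own read totals were not used for this estimate. All 16 fixed markers of sensory neurons were detected, with summed levels of 2627 to 4039 FPKM. On the first 2 principal components, CFA6D replicate 6 stood apart on the first (-66.3, against -3.82 to 21.4 in the other 8 libraries) and saline replicate 3 was lowest on the second (-45.8, against -13.3 to 29.4). Saline replicate 3 also held 10702 FPKM of 10 pituitary markers, against 10.8 to 1121 FPKM in the other 8 libraries. Where leaving out either library turned a difference from saline or moved it by over 1.5 times, the value without it is given for that gene.

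By mean level over the 9 libraries, Nr4a1 was the highest of the set at 13.6 FPKM, above 75.0% of all tested gene sums. Junb followed at 6.41 FPKM, then Btg2 at 3.49, Ier2 at 3.23, Egr1 at 3.18, Fos at 2.43, Egr3 at 1.66 and Arc at 1.16 FPKM. Fosb was the lowest at 0.231 FPKM, above 5.42% of tested gene sums, and rested on about 12.6 to 71.8 read pairs per library. Nr4a1 lay above Junb, and Junb above Btg2, in each of the 9 libraries, and Fosb lay below the other 8 genes in each. From Btg2 down to Arc, the range of each gene overlapped that of the next, and no pair of neighbours kept its order in all 9 libraries. Differences between neighbours were not tested.

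A comparison was made by limma on log2(FPKM + 0.1), and a gene was called at an unadjusted p under 0.05 with a log2 difference of at least 1 in size. Adjusted p-values (Benjamini-Hochberg) run over all 16096 gene sums. On CFA6D, Egr3 was the only 1 of the 9 genes called against saline, and Nr4a1, Egr1 and Junb were higher with an unadjusted p under 0.05 and a smaller difference. No gene of the set was called on CFA3D. The limma adjusted p was 0.997 for each of the 9 genes on CFA3D, and none of the 9 had one under 0.05 in any comparison. Below, "past the p threshold" means an unadjusted p under 0.05. Over all tested gene sums limma likewise gave 0 adjusted p-values under 0.05 in each of the 3 comparisons, beside 717, 1781 and 1190 unadjusted ones for CFA3D against saline, CFA6D against saline and CFA6D against CFA3D.

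**Figure D1:**
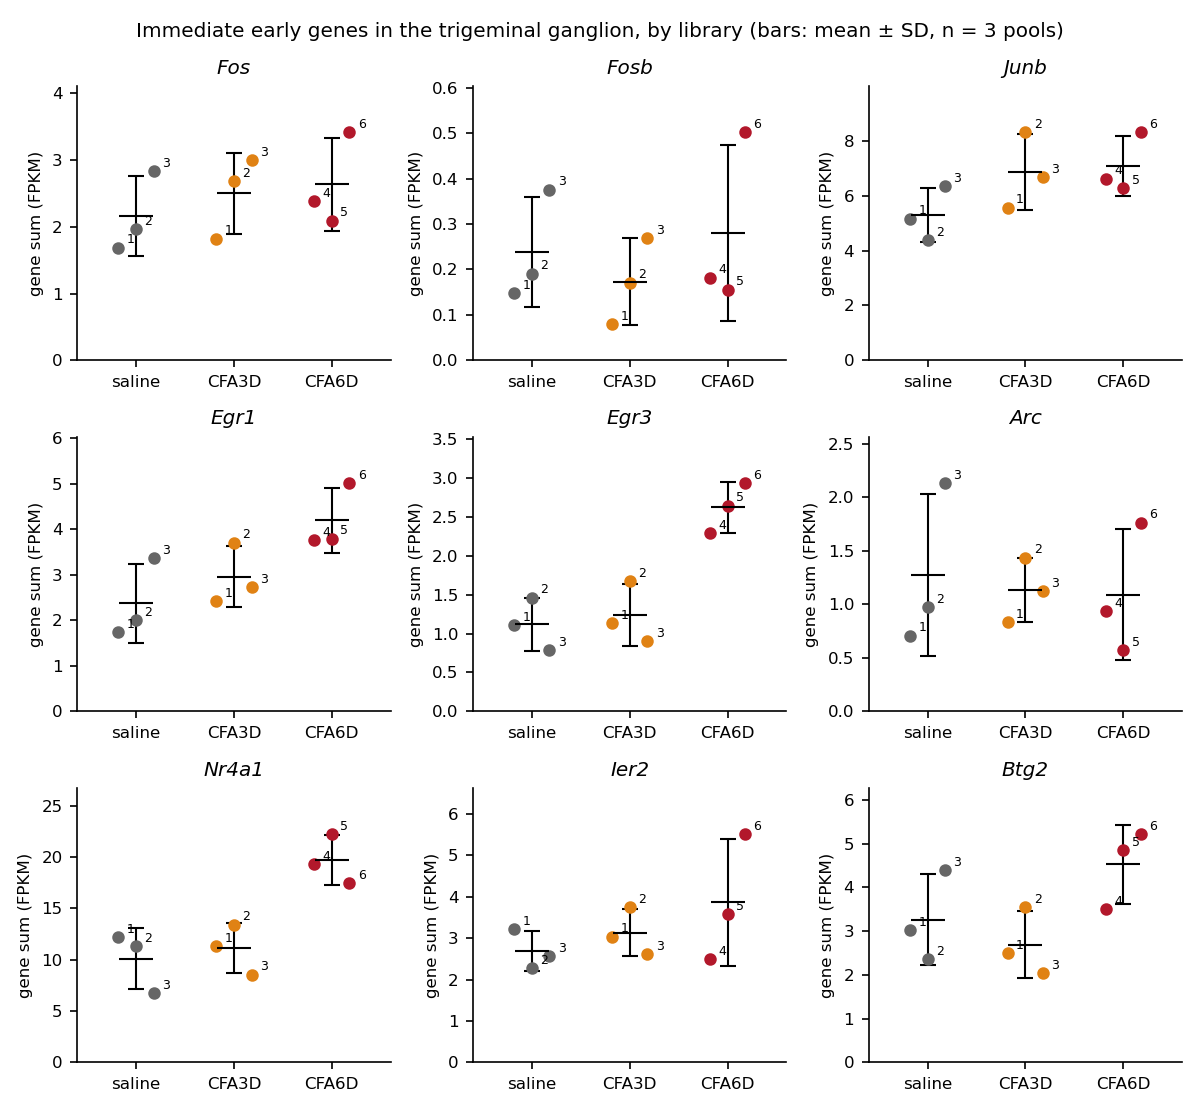
Gene sum in FPKM (vertical axis, linear, from 0) of each gene in each library, with 1 panel per gene and the groups saline, CFA3D and CFA6D on the horizontal axis. Points are pools labelled by replicate number, and bars show the mean ± SD of 3 pools. The 3 CFA6D points of Egr1, Egr3 and Nr4a1 lie above all 6 other points, and the groups overlap for the other 6 genes.

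Among the AP-1 subunits, Fos is the classic marker of recently activated neurons and pairs with a Jun protein to bind DNA. Fos (ENSMUSG00000021250.13, chr12:85473890-85477273, plus strand, GRCm38) measured 1.69, 1.96 and 2.83 FPKM in saline replicates 1 to 3, 1.82, 2.68 and 3.00 FPKM in CFA3D replicates 1 to 3 and 2.39, 2.09 and 3.42 FPKM in CFA6D replicates 4 to 6. The 3 groups overlapped, and only CFA3D replicate 3 and CFA6D replicate 6 lay above saline replicate 3. Means were 2.16 ± 0.597, 2.5 ± 0.608 and 2.63 ± 0.698 FPKM (SD). The log2 difference from saline was 0.21 (SE 0.26) on CFA3D and 0.28 (SE 0.26, limma adjusted p = 0.735) on CFA6D, neither past the p threshold. The 95% interval on CFA6D, -0.31 to 0.87, leaves room for a difference in either direction. Without CFA6D replicate 6 the CFA6D difference was 0.080, and without saline replicate 3 the differences were 0.41 on CFA3D and 0.48 on CFA6D.

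Fosb, whose stable splice form builds up under repeated stimulation in the brain, rested on few read pairs. Fosb (ENSMUSG00000003545.3, chr7:19302696-19310051, minus strand) measured 0.148, 0.191 and 0.376 FPKM in saline, 0.0792, 0.171 and 0.270 FPKM on CFA3D and 0.182, 0.156 and 0.503 FPKM on CFA6D. In the CFA6D group 1 library, replicate 6, lay above all others, and the other 2 lay inside the saline range. The log2 difference was -0.31 (SE 0.44) on CFA3D and 0.11 (SE 0.44, limma adjusted p = 0.944) on CFA6D, and the latter became -0.27 without CFA6D replicate 6 and -0.08 without saline replicate 1. Without saline replicate 3 the differences were -0.035 on CFA3D and 0.39 on CFA6D. Fosb-201, the main protein-coding transcript, carried 73.6% of the sum, and the other 6 annotated transcripts were below the filter or listed at 0, so forms of Fosb could not be compared.

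Junb, a Jun protein that is induced with Fos and can restrain c-Jun, was the most abundant of the AP-1 members. Junb (ENSMUSG00000052837.6, chr8:84974484-84978718, minus strand) measured 5.16, 4.39 and 6.33 FPKM in saline, 5.56, 8.31 and 6.68 FPKM on CFA3D and 6.62, 6.27 and 8.32 FPKM on CFA6D. Saline replicate 3 lay inside the range of both CFA groups, and the other 2 saline libraries lay below all 6 CFA libraries. The log2 difference was 0.36 (SE 0.18, 95% interval -0.05 to 0.78) on CFA3D and 0.42 (SE 0.18, 95% interval 0.00095 to 0.83, limma adjusted p = 0.451) on CFA6D. The latter was past the p threshold, as it was in 8 of 17 alternative settings. The annotated span of Junb overlaps Prdx2 on the opposite strand, and the strand setting of the authors' counting is not given in the sources used here, so reads of the pair may not be told apart. Junb-201, the single-exon coding transcript, carried 97.1% of the sum.

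The EGR factors bind GC-rich sites and follow MAP kinase signalling. Egr1 (ENSMUSG00000038418.7, chr18:34859823-34864984, plus strand) measured 1.75, 2.0 and 3.36 FPKM in saline, 2.43, 3.71 and 2.73 FPKM on CFA3D and 3.77, 3.8 and 5.02 FPKM on CFA6D. All 3 CFA6D libraries lay above the 6 others, while CFA3D overlapped saline through saline replicate 3. Means were 2.37 ± 0.865, 2.96 ± 0.670 and 4.20 ± 0.716 FPKM (SD), and the mean on CFA6D was 1.77 times that of saline. The log2 difference from saline was 0.34 (SE 0.25) on CFA3D and 0.84 (SE 0.25, 95% interval 0.27 to 1.41, limma adjusted p = 0.253) on CFA6D. Against CFA3D it was 0.50 (95% interval -0.07 to 1.07, limma adjusted p = 0.687). The CFA6D difference from saline was past the p threshold here and in 17 of 17 alternative settings, and was 1.11 without saline replicate 3. On CFA3D the difference was 0.61 without that library. The whole sum came from Egr1-201, and Egr1-202 was listed at 0 in all libraries.

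Egr3, which is known for its part in muscle spindle development, had the largest difference of the set. Egr3 (ENSMUSG00000033730.4, chr14:70077203-70082614, plus strand) measured 1.11, 1.46 and 0.789 FPKM in saline, 1.13, 1.68 and 0.902 FPKM on CFA3D and 2.29, 2.64 and 2.94 FPKM on CFA6D. The lowest CFA6D library lay above the highest of the other 6, and the CFA3D values were interleaved with those of saline. Means were 1.12 ± 0.337, 1.24 ± 0.398 and 2.62 ± 0.326 FPKM (SD), 2.34 times the saline mean on CFA6D. Egr3 rose on CFA6D by a log2 difference of 1.19 (SE 0.27, 95% interval 0.59 to 1.79, limma adjusted p = 0.153) from saline and 1.06 (SE 0.27, 95% interval 0.46 to 1.66, limma adjusted p = 0.577) from CFA3D. On CFA3D the difference from saline was 0.13 (95% interval -0.47 to 0.73), and -0.079 without saline replicate 3. Without saline replicate 3, the lowest of all 9 libraries for Egr3, the CFA6D difference was 0.98, just under the minimum for a call, and without CFA6D replicate 6 the difference from CFA3D was also 0.98. The difference from CFA3D was 0.87 without CFA3D replicate 3. Both calls were lost with a pseudocount of 1 FPKM (0.78 and 0.71) and with the highest transcript, Egr3-204, in place of the gene sum (0.64 and 0.69).

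The 4 annotated transcripts of Egr3 did not all show the difference alike. Egr3-201, a spliced coding transcript of 3 exons with 30.5% of the sum, measured 0.280, 0.267 and 0.178 FPKM in saline, 0.429, 0.355 and 0.497 FPKM on CFA3D and 0.852, 0.632 and 1.06 FPKM on CFA6D. Its 3 groups did not overlap. Its log2 difference from saline was 0.63 (limma adjusted p = 0.989) on CFA3D and 1.46 (limma adjusted p = 0.281) on CFA6D, both past the p threshold. Egr3-204, the other coding transcript with 31.8% of the sum, overlapped between the groups, with a log2 difference of 0.64 (limma adjusted p = 0.815) on CFA6D that was largest through replicate 6 (1.31 FPKM, against 0.474 and 0.506 in replicates 4 and 5). Egr3-202, an annotated retained intron with 28.9% of the sum, was 0.88 higher than saline (limma adjusted p = 0.821) and 1.37 higher than CFA3D (limma adjusted p = 0.918), the latter past the p threshold. The differences between transcripts were not tested, and FPKM of overlapping transcripts of 1 gene rest on how shared reads were divided.

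Nr4a1 (also known as Nur77) is a nuclear receptor without a known hormone ligand whose level itself sets its activity. Nr4a1 (ENSMUSG00000023034.7, chr15:101254269-101274795, plus strand) measured 12.2, 11.4 and 6.77 FPKM in saline, 11.3, 13.4 and 8.57 FPKM on CFA3D and 19.4, 22.3 and 17.5 FPKM on CFA6D. CFA6D did not overlap the other groups, which overlapped each other. With about 616 to 1913 read pairs per library it rested on the most reads of the set. Means were 10.1 ± 2.94, 11.1 ± 2.44 and 19.7 ± 2.42 FPKM (SD), so that CFA6D was at 1.95 times saline and 1.77 times CFA3D. The log2 difference of CFA6D was 0.99 from saline (SE 0.23, 95% interval 0.47 to 1.51, limma adjusted p = 0.162), just under the minimum for a call, and 0.84 from CFA3D (SE 0.23, 95% interval 0.32 to 1.36, limma adjusted p = 0.613). Both were past the p threshold here and in 17 of 17 alternative settings. On CFA3D the difference from saline was 0.16 and became -0.11 without saline replicate 3.

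Nr4a1-201, a coding transcript that starts at the RefSeq promoter shown further on, carried 83.0% of the sum. It measured 9.90, 9.81 and 4.98 FPKM in saline, 9.84, 11 and 6.79 FPKM on CFA3D and 16.2, 19.1 and 14.4 FPKM on CFA6D, and its log2 difference from saline on CFA6D was 1.06 (past the p threshold, limma adjusted p = 0.526). Nr4a1-204, an annotated retained intron with 7.18% of the sum, was also above saline in every CFA6D library, by 0.93 (past the p threshold, limma adjusted p = 0.68). Nr4a1-202, which starts upstream of Nr4a1-201, made up 2.85% and differed by -0.47 on CFA6D (limma adjusted p = 0.924). Nr4a1-203, a shorter coding transcript with the same start as Nr4a1-201, made up 6.93%. On CFA6D it was 1.08 above saline (not past the p threshold, limma adjusted p = 0.764). It was 1.52 above CFA3D (past the p threshold, limma adjusted p = 0.918).

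**Figure D2:**
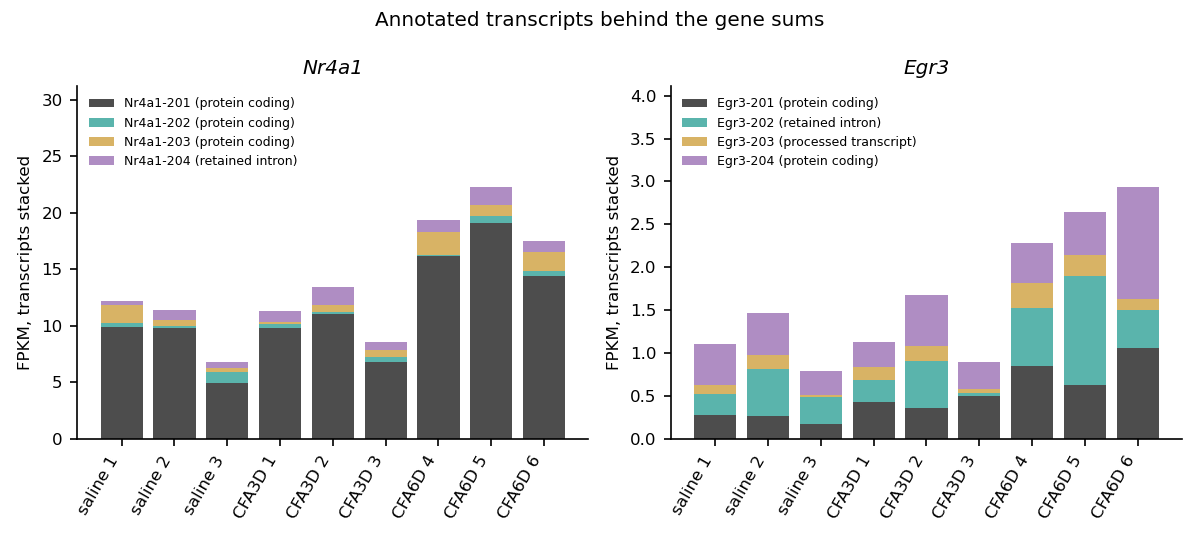
FPKM of each annotated transcript of Nr4a1 (left) and Egr3 (right), stacked by library, so that each bar's height is the gene sum. Nr4a1-201 makes up most of every Nr4a1 bar, while the Egr3 bars divide among Egr3-201, Egr3-202 and Egr3-204 in shares that vary by library.

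Arc, which is carried to dendrites and regulates AMPA receptors at synapses, did not differ between groups beyond its spread. Arc (ENSMUSG00000022602.14, chr15:74669083-74672570, minus strand) measured 0.708, 0.975 and 2.13 FPKM in saline, 0.837, 1.44 and 1.12 FPKM on CFA3D and 0.935, 0.572 and 1.76 FPKM on CFA6D. The highest library was saline replicate 3 and the lowest CFA6D replicate 5. Its log2 difference was -0.05 (95% interval -1.05 to 0.96) on CFA3D and -0.19 (95% interval -1.20 to 0.81, limma adjusted p = 0.902) on CFA6D, and without saline replicate 3 these became 0.37 and 0.23. Without CFA6D replicate 6 the CFA6D difference was -0.58.

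Ier2 is a growth factor-inducible nuclear protein encoded by a gene of a single exon. Ier2 (ENSMUSG00000053560.4, chr8:84661331-84662852, minus strand) measured 3.22, 2.28 and 2.57 FPKM in saline, 3.04, 3.75 and 2.62 FPKM on CFA3D and 2.51, 3.58 and 5.52 FPKM on CFA6D. The CFA6D libraries spanned the whole range from inside the saline group to the highest value, replicate 6. The log2 difference was 0.21 on CFA3D and 0.45 (95% interval -0.15 to 1.05, limma adjusted p = 0.58) on CFA6D. The CFA6D difference was 0.16 without replicate 6.

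Btg2, an antiproliferative factor and p53 target that also promotes mRNA deadenylation, was at its lowest mean on CFA3D. Btg2 (ENSMUSG00000020423.6, chr1:134075170-134079120, minus strand) measured 3.03, 2.36 and 4.39 FPKM in saline, 2.5, 3.54 and 2.04 FPKM on CFA3D and 3.50, 4.85 and 5.22 FPKM on CFA6D. CFA6D replicate 4 lay below the highest CFA3D and saline libraries, and the other 2 CFA6D libraries lay above all others. Means were 3.26 ± 1.04, 2.69 ± 0.771 and 4.52 ± 0.907 FPKM (SD). The log2 difference from saline was -0.26 on CFA3D and 0.49 (95% interval -0.12 to 1.09, limma adjusted p = 0.551) on CFA6D. On CFA3D it was -0.025 without saline replicate 3. CFA6D was 0.74 above CFA3D (SE 0.27, 95% interval 0.14 to 1.35, limma adjusted p = 0.641), past the p threshold here and in 13 of 17 alternative settings.

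The RefSeq promoter table (GRCm38.p6) matched 5 of the 9 genes (Btg2, Fosb, Junb, Fos and Nr4a1). The 250 bases before the start of Nr4a1 and Btg2, whose CFA6D levels differed from CFA3D at an unadjusted p under 0.05, and of Fos, whose levels did not, are shown because they hold the letters of elements known to drive immediate early genes. Capitals mark matches to 6 motifs. Searched on both strands were the cAMP response element CRE (TGACGTCA), its core (TGACG, which the full element contains on each strand), the EGR site (GCGGGGGCG or GCGTGGGCG), the AP-1 site (TGACTCA) and the CArG box that SRF binds, and on the gene's strand only the TATA box (TATAAA). Sequences run 5′ to 3′ on the strand of the gene.
Nr4a1, chr15:101266596-101266845, plus strand: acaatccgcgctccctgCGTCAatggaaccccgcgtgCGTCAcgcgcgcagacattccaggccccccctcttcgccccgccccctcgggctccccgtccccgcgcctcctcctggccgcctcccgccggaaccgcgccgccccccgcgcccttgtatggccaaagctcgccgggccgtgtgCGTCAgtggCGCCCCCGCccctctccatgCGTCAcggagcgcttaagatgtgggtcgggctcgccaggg
Btg2, chr1:134079156-134079405, minus strand: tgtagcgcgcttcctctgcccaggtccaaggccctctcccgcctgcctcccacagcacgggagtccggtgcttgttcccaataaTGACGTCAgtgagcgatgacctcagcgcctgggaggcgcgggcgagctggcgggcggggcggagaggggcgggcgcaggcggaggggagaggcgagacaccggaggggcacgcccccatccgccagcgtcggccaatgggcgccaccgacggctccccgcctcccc
Fos, chr12:85473640-85473889, plus strand: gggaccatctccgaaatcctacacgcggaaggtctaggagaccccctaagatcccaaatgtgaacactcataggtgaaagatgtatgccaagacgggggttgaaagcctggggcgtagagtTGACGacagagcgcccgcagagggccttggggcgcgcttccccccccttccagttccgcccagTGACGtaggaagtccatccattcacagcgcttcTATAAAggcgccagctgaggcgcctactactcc

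The Nr4a1 sequence holds 4 cores, all read on the opposite strand, and 1 EGR site. The Btg2 sequence holds the set's single full CRE, which accounts for both of its cores, and Fos holds 2 cores and 1 TATA box. Fosb and Junb hold 1 core each, and Fosb also 1 EGR site. The core was thus in 5 of 5 of these promoters, against 17.8% of the 32851 promoters in the table, a full CRE in 1 of 5 against 1.55%, an EGR site in 2 of 5 against 3.06% and a TATA box in 1 of 5 against 7.59%. Neither the AP-1 site (4.46% of all promoters) nor the CArG box (1.47%) had its letters in these 5 windows. Bases further upstream and the promoters of Egr1, Egr3, Arc and Ier2 were not searched, so such sites may lie there. A match describes the sequence and is neither a shown binding site nor a cause.

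Side by side, none of the 9 genes was past the p threshold on CFA3D, and Junb, Egr1, Egr3 and Nr4a1 were higher than saline past it on CFA6D. CFA3D and CFA6D were set against the same 3 saline libraries, and CFA6D entered 2 comparisons, so the comparisons are not independent. The 9 genes were chosen with earlier results known, so the shares here and between the CFA days are a description. On CFA3D, 0 of 9 genes were called higher (0.0746% of all tested gene sums), 0 of 9 were higher at an unadjusted p under 0.05 (3.65%) and 0 of 9 had all CFA3D libraries above all saline libraries (7.01%). The median log2 difference of the 9 was 0.16, against 0.05 over all tested gene sums. On CFA6D, 1 of 9 was called higher than saline (Egr3; 0.398% of all), 4 of 9 were higher at an unadjusted p under 0.05 (Junb, Egr1, Egr3 and Nr4a1; 8.22% of all) and 3 of 9 did not overlap saline (Egr1, Egr3 and Nr4a1; 10.7% of all). The median was 0.45, against 0.03 over all.

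Between the CFA days, 1 of 9 genes was called higher on CFA6D than on CFA3D (Egr3; 0.634% of all), 3 of 9 were higher at an unadjusted p under 0.05 (Egr3, Nr4a1 and Btg2; 3.06% of all) and 3 of 9 did not overlap (Egr1, Egr3 and Nr4a1; 6.62% of all). The median log2 difference was 0.42, against -0.02 over all tested gene sums. Arc was the only 1 of the 9 with a negative difference of CFA6D from both saline and CFA3D. In these bulk samples, more cells of a type and more RNA per cell cannot be told apart.

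**Figure D3:**
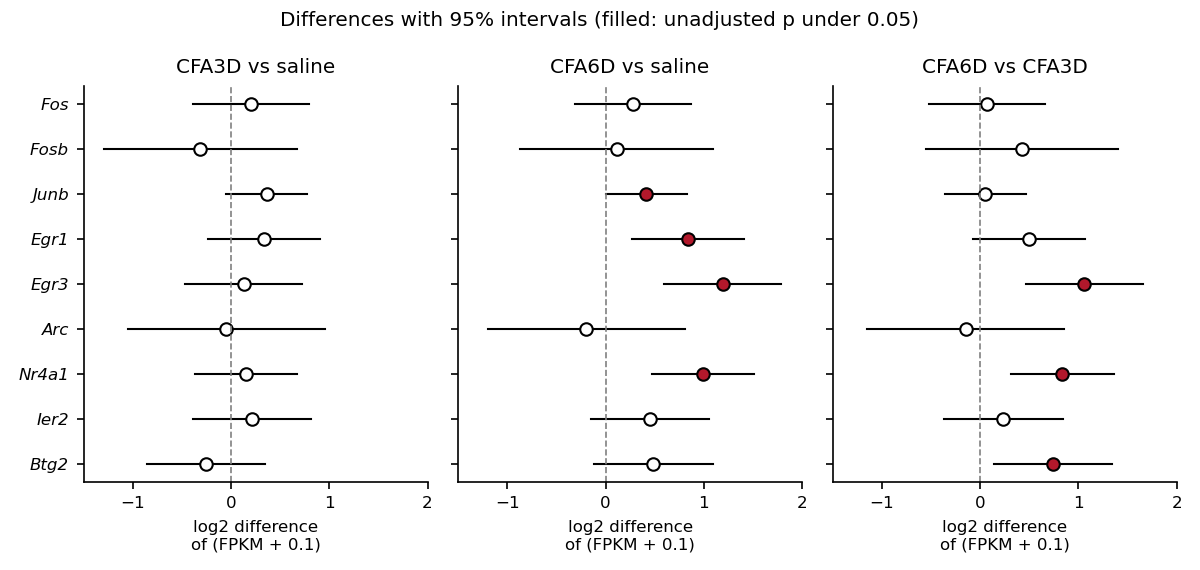
Log2 difference of (FPKM + 0.1) with its 95% interval (horizontal axis) for each gene (vertical axis) in CFA3D against saline, CFA6D against saline and CFA6D against CFA3D. Filled points have an unadjusted limma p under 0.05: none on CFA3D, Junb, Egr1, Egr3 and Nr4a1 on CFA6D, and Egr3, Nr4a1 and Btg2 between the CFA days.

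The genes varied more between pools of 1 group than most gene sums, in a ranking that was not matched for expression level. The median within-group SD over all tested gene sums was 0.188 on the log2 scale. Arc, at 0.644, exceeded 92.4% of gene sums and Fosb, at 0.570, exceeded 90.2%, while the other 7 lay between 0.255 (Junb, above 65.4%) and 0.380 (Btg2, above 80.1%). Individual libraries weighed on several genes at once. CFA6D replicate 6 was the highest of all 9 libraries for 7 of the 9 genes, against 17.5% of all tested gene sums, the exceptions being Nr4a1 (highest in CFA6D replicate 5) and Arc (highest in saline replicate 3). Saline replicate 3 was the highest saline library for Fos, Fosb, Junb, Egr1, Arc and Btg2, 6 of the 9 against 30.0% of all gene sums. It was the lowest of all 9 libraries for Egr3 and Nr4a1, 2 of the 9 against 19.4% of all gene sums. As a z-score of the log2 level over libraries averaged over the 9 genes, saline stood at -0.72, -0.74 and 0.11, CFA3D at -0.70, 0.44 and -0.30 and CFA6D at 0.18, 0.27 and 1.45. CFA6D replicates 4 and 5 thus lay below CFA3D replicate 2 on this average.

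**Figure D4:**
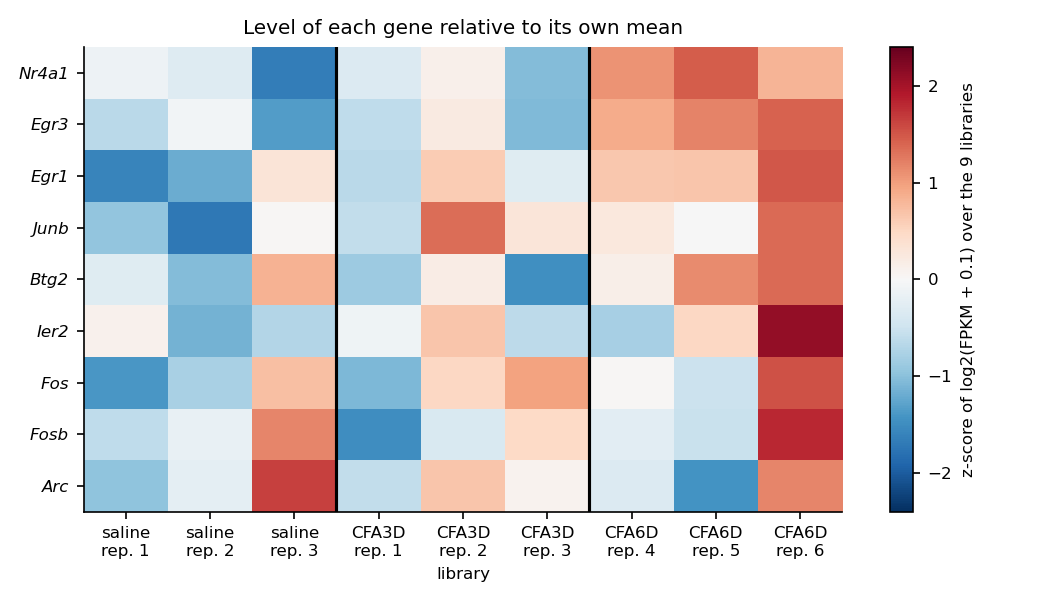
Z-score of log2(FPKM + 0.1) over the 9 libraries (colour, blue below and red above the gene's own mean) for each gene (vertical axis) in each library (horizontal axis, groups divided by lines). Nr4a1 and Egr3 are red in all 3 CFA6D libraries and bluest in saline replicate 3, while Fos, Fosb and Arc are reddest in single libraries, CFA6D replicate 6 or saline replicate 3.

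A wider view came from 57 other immediate early genes, of which 24 were higher on CFA6D than saline at an unadjusted p under 0.05 (42.1%, against 8.22% of all tested gene sums) and 2 were lower. On CFA3D 4 of the 57 were higher (7.02%, against 3.65%) and none lower, and between the CFA days 17 were higher (29.8%, against 3.06%) and 6 lower. Of all gene sums past that p, 588 of 717 were higher on CFA3D, 1323 of 1781 on CFA6D and 492 of 1190 between days. The median log2 difference of the 57 was 0.11 on CFA3D, 0.42 on CFA6D and 0.17 between the days. The CFA6D count was 23 without saline replicate 3, 21 without CFA6D replicate 6 and 20 of 56 without both. The lists were drawn up with earlier results of these data known, so these counts are a description.

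Of the 25 other immediate early transcription factors, 10 were higher on CFA6D than saline past the p threshold, against 8.22% of all tested gene sums. Past it 1 was lower, and the list median was 0.57. Of the 10 higher factors, 5 were called, while 0.398% of all tested gene sums were called higher. They were Egr2, an EGR factor also known as a driver of Schwann cell myelination (1.27), Fosl2, an AP-1 subunit (1.07), Klf2 (1.56) and Klf4 (1.17), Krüppel-like factors, and Nr4a3, a relative of Nr4a1 (1.06), with limma adjusted p-values of 0.124 to 0.444. Fosl2 measured 3.91, 3.38 and 4.32 FPKM in saline, 4.22, 5.51 and 3.09 FPKM on CFA3D and 6.7, 9.64 and 8.58 FPKM on CFA6D, with CFA6D above all other libraries. Klf2 measured 7.24, 5.89 and 4.26 FPKM in saline, 8.0, 11.4 and 3.42 FPKM on CFA3D and 13.5, 19.6 and 18.1 FPKM on CFA6D, again with no overlap. Egr2, Klf2 and Npas4, a neuronal activity factor, were called higher on CFA6D than CFA3D (1.78, 1.30 and 1.09), Npas4 at levels of 0.051 to 0.371 FPKM. Over all tested gene sums 0.634% were called higher between these days. On CFA3D none of the 25 was called (0.0746% of all were called higher), and the list median was 0.11.

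Of the 32 immediate early effectors and feedback genes, 7 rose on CFA6D and were called, against 0.398% of all tested gene sums. Sik1, a cAMP-induced kinase that restrains CREB signalling, rose by 1.34 (limma adjusted p = 0.083), from 2.44, 2.84 and 3.21 FPKM in saline to 5.71, 7.97 and 8.53 FPKM on CFA6D, and stood at 3.20, 4.36 and 2.91 FPKM on CFA3D. Dusp2, a MAP kinase phosphatase, rose by 1.37, Nfkbia, the inhibitor of NF-κB, by 1.15, the clock gene Per1 by 1.11, the small GTPase Arl4d by 1.04 and the matricellular genes Ccn1 and Ccn2 by 1.33 and 1.15, with adjusted p-values of 0.103 to 0.388. Ccn1 and Ccn2 were high in CFA6D replicates 5 and 6 (7.51 and 8.03 FPKM for Ccn1) and inside the saline range in replicate 4 (2.23 FPKM). The list as a whole was split, with 14 of 32 higher and 1 lower than saline at an unadjusted p under 0.05 and a median of 0.16. Over all tested gene sums 8.22% were higher at that p. Between the CFA days 8 were higher (3.06% of all tested gene sums were) and 5 lower at that p. The median between the days was -0.03, with 15 of 32 above 0.

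The 28 upstream regulators (MAP kinases, CREB and its relatives, partners of SRF and other factors and cofactors) held 0 called genes in any comparison. At an unadjusted p under 0.05, 2 were higher on CFA3D (3.65% of all tested gene sums were). On CFA6D 7 were higher (8.22% of all tested gene sums were) and 1 lower at that p. The list medians were 0.07 and 0.15. The largest CFA6D differences were those of Mrtfa, a cofactor of SRF (0.45, limma adjusted p = 0.281), Camk2a, a calcium-dependent kinase (0.39, adjusted p = 0.29), and Rps6ka2, a kinase below ERK (0.35, adjusted p = 0.185).

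**Figure D5:**
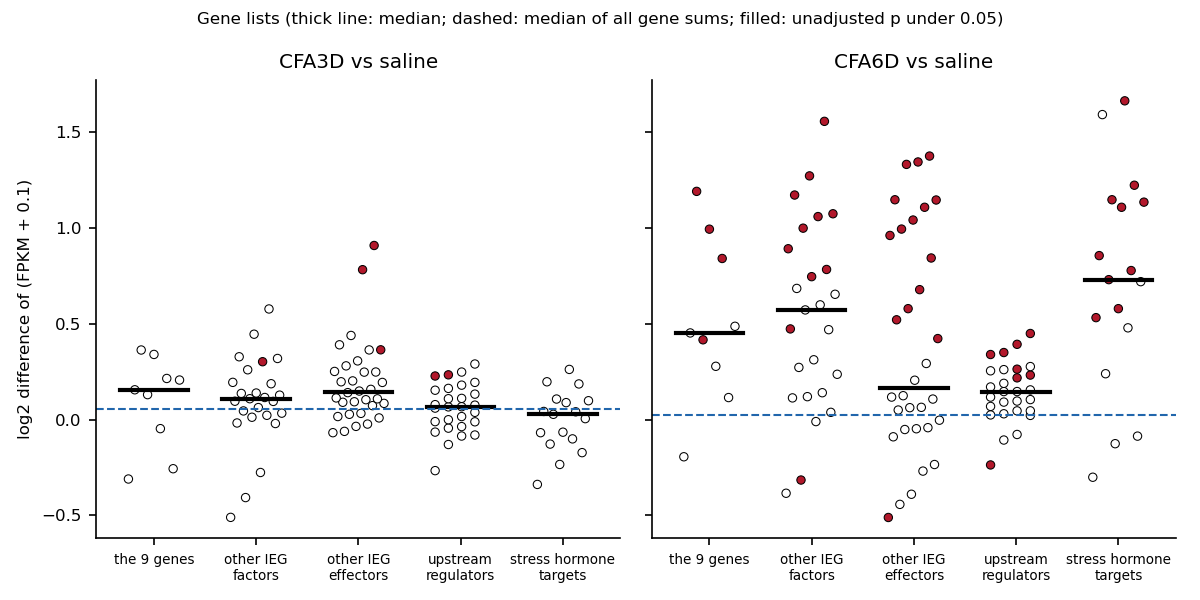
Log2 difference of (FPKM + 0.1) from saline (vertical axis) of each gene in 5 lists (horizontal axis) on CFA3D (left) and CFA6D (right). Thick lines mark list medians, the dashed line the median of all tested gene sums, and filled points an unadjusted limma p under 0.05. On CFA3D the medians lie between 0.03 and 0.16, and on CFA6D those of the 9 genes, the other factors and the stress hormone targets lie at 0.45, 0.57 and 0.73.

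Genes known to respond to glucocorticoids were measured as well. Of 17 such stress hormone targets tested, 10 were higher on CFA6D than saline at an unadjusted p under 0.05, 5 of them called, with a list median of 0.73, and 0 were lower. Over all tested gene sums these shares were 8.22% and 0.398%. On CFA3D the count was 0 in either direction and the median 0.03, and between the CFA days 6 were called higher (0.634% of all tested gene sums were). Ddit4, an mTOR inhibitor induced by stress, measured 26.3, 24.3 and 16.9 FPKM in saline, 26.4, 27.2 and 16.4 FPKM on CFA3D and 69.4, 79.1 and 63.0 FPKM on CFA6D (1.66, limma adjusted p = 0.0729). Arid5b rose by 1.13, Sgk1, an ion transport kinase, by 1.22 and Pdk4, a fuel-switch kinase, was called higher than on CFA3D (1.19), and Per1 and Nfkbia, already named among the immediate early genes, belong to this list as well. Whether a response to stress hormones has a part in the differences of the 9 genes was not tested.

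Markers of cell types were measured beside these results. The 16 sensory neuron markers summed to 2627 to 3367 FPKM in saline, 3186 to 3765 FPKM on CFA3D and 3370 to 4039 FPKM on CFA6D. The lowest CFA6D sum thus lay only just above the highest saline sum. At an unadjusted p under 0.05, 3 of 16 were higher on CFA3D (3.65% of all tested gene sums) and 7 of 16 on CFA6D (8.22%), none called. All 16 were above 0 on CFA3D and 15 on CFA6D, with list medians of 0.20 and 0.25. Satellite glia markers (9) summed to 1029 to 1172 FPKM in saline, 988 to 1110 FPKM on CFA3D and 817 to 1054 FPKM on CFA6D, with 1 lower on CFA6D at that p. Schwann cell markers (8) summed to 2527 to 3182, 2764 to 3218 and 2428 to 3493 FPKM, with Egr2 the 1 gene called. Egr2 was called higher on CFA6D than saline (0.398% of all tested gene sums) and than CFA3D (0.634%). Macrophage markers (10) summed to 99.5 to 122, 83.7 to 152 and 59.3 to 105 FPKM, with 1 lower on CFA6D. Endothelial markers (10) summed to 65.8 to 77.2, 62.8 to 101 and 65.3 to 81.0 FPKM with 0 past that p. Fibroblast markers (10) summed to 881 to 1910, 1065 to 2193 and 832 to 2450 FPKM with 3 lower on CFA6D. Over all 16096 tested gene sums, 1781 were past that p on CFA6D, and 1323 of them were higher.

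Red cell and granulocyte markers (10) summed to 2236 to 5860 FPKM in saline, 1688 to 3926 FPKM on CFA3D and 2308 to 5248 FPKM on CFA6D. Of these markers, 1 was called higher on CFA6D than saline (0.398% of all tested gene sums) and 4 than CFA3D (0.634%). CFA6D replicate 6 had the highest of the CFA6D sums, and saline replicate 2 had the highest of all. Saline replicate 2 was the lowest of the 9 libraries for Junb and Ier2, 2 of the 9 genes against 19.2% of all gene sums. Muscle markers (9) summed to 5.42 to 191, 2.51 to 11.1 and 1.87 to 80.5 FPKM with 1 called lower on CFA3D. Over all 16096 tested gene sums, 55 were called on CFA3D, and 12 of them were higher. Pituitary markers (10) summed to 10.8 to 10702, 22.2 to 26.1 and 44.5 to 1121 FPKM, with 1 called higher on CFA3D (0.0746% of all). No marker of any list was at 0 in all libraries, and the part of cell composition in the differences of the 9 genes was not tested.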

How the data were processed

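Total RNA of 9 TG libraries was sequenced by the study after ribosomal RNA depletion with a stranded TruSeq kit, and reads were trimmed with Trimmomatic and mapped to GRCm38. Expression levels came from CLC Genomics Workbench per the paper, whereas the submitters' processing notes name Bowtie 0.12.2 and mm8. The tool that made the FPKM and its strand setting are not given in the sources used here. The authors deposited FPKM per transcript and library (102122 transcripts, of which 101539 matched GENCODE release M21). All sample columns were used (0 left out).

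FPKM were summed per gene name. The comparisons used limma 3.58.1 (R 4.3.3) on log2(FPKM + 0.1), with a linear model of 3 groups, all 9 libraries, no covariate, and empirical Bayes moderation with a trend. The test took gene sums whose mean reached 0.1 FPKM. The pseudocount shrinks differences of low genes. The same model was run on single transcripts. Read pairs were estimated from the steps of low FPKM times length, but only 33.6% to 38.6% of low values were whole reads within 0.05, so no count test was run. An exact permutation test of 3 pools against 3 cannot go below 0.1 and is not given. Replicate numbers are shared by saline and CFA3D only and name pools of different mice.

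Named genes are the 9 genes, every gene called from the lists of immediate early genes, upstream regulators and stress hormone targets (or the 3 largest CFA6D differences where none was called), and the 10 gene sums most like the set. The members and lists were chosen with earlier results of these data known. The scripts were tested on simulated data. Alternatives are given in the closing section, with the counts of other immediate early genes added after seeing the data. Other steps ran in Python 3.11.15 with pandas 2.3.3, numpy 2.4.6 and matplotlib 3.10.9.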

Additional observations from a re-analysis of the deposited data

How the results depend on the processing

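Over all alternatives, 152 of 161 values for CFA3D against saline, 137 of 152 for CFA6D against saline and 136 of 152 for CFA6D against CFA3D kept their direction and side of the call. Changing the filter, fitting only the groups compared and adding the replicate block cannot move a log2 difference. Nor can leaving out a library of the group not compared. The agreement of these settings was fixed in advance and is included in the counts. No gene of the set was called on CFA3D under any alternative. The 1 call on CFA6D against saline became 0 with a pseudocount of 1, 2 with a pseudocount of 0.01, 4 with no fold minimum, 0 without both saline replicate 3 and CFA6D replicate 6, and 1 to 2 when single libraries were left out. It stayed at 1 with the highest transcript (Nr4a1 at 1.06, Egr3 at 0.64) and without saline replicate 3 (Egr1 at 1.11, Egr3 at 0.98), where another gene replaced Egr3. The 1 call between the CFA days became 0 with a pseudocount of 1, 3 with no fold minimum, 0 with the highest transcript in place of the gene sum, 0 without both of those libraries, and 0 to 1 with single libraries left out. For these counts the fold minimum and the pseudocount act by construction, and other causes were not tested. The 24 other immediate early genes higher on CFA6D became 19 to 25 with single libraries left out.

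Directions turned as follows. With the highest transcript, Egr3 on CFA3D was -0.053 and Fos between the CFA days -0.032. Without both libraries, Egr3, Arc and Nr4a1 on CFA3D were -0.079, 0.37 and -0.11, and Fos, Junb and Ier2 between the days -0.13, -0.068 and -0.049. With single libraries left out, ranges on CFA3D were -0.10 to 0.33 for Egr3, -0.36 to 0.37 for Arc and -0.11 to 0.33 for Nr4a1. On CFA6D against saline they were -0.27 to 0.39 for Fosb and -0.58 to 0.23 for Arc, and between the days -0.13 to 0.22 for Fos, -0.085 to 0.20 for Junb, -0.53 to 0.20 for Arc and -0.049 to 0.51 for Ier2. The cause was not tested.

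Same-numbered saline and CFA3D libraries did not deviate together (correlations of 0.09, -0.08 and 0.03). With the replicate block, 0 members were called on CFA3D, as without it, and 114 gene sums were, against 78 in the same libraries without the block. Over all tested gene sums, the 12, 64 and 102 called higher on CFA3D, on CFA6D and between the days became 1, 18 and 31 with a pseudocount of 1, and 81, 128 and 120 with the highest transcript. Pools of 3 mice, 3 per group, and levels as low as those of Fosb limit what can be seen.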

Other observations

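Of the 57 other immediate early genes, 4 (7.02%) did not overlap saline on CFA3D and were higher, against 7.01% of all tested gene sums. Values of 3 genes are given here as a description, chosen after they were seen. Nptx2, a neuronal pentraxin that gathers AMPA receptors at synapses, measured 8.90, 9.09 and 8.34 FPKM in saline, 14.5, 18 and 17.3 FPKM on CFA3D and 21.8, 16 and 14.5 FPKM on CFA6D, with log2 differences of 0.91 (limma adjusted p = 0.997) and 0.96 (limma adjusted p = 0.0861). Bdnf, a neurotrophin made by nociceptors, measured 2.64, 2.22 and 2.34 FPKM in saline, 3.36, 4.48 and 4.88 FPKM on CFA3D and 3.6, 3.16 and 3.00 FPKM on CFA6D, with log2 differences of 0.78 and 0.42. Jun, the main partner of Fos, measured 19.2, 18.7 and 18.8 FPKM in saline, 21.7, 24.8 and 23.5 FPKM on CFA3D and 27.3, 24.8 and 26.7 FPKM on CFA6D, with log2 differences of 0.30 and 0.47. For each of the 3 genes, all CFA libraries lay above all saline libraries, and none reached the fold minimum for a call.

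Among 13167 other gene sums that averaged 1 FPKM or more, the 10 most like the average z-score of the 9 genes over the 9 libraries, by Pearson's r, were Gm6169 (0.954), Rel (0.946), Tmem28 (0.945), Nuak2 (0.944), Rplp2 (0.943), Trim25 (0.939), Gnai2 (0.935), Rad54l2 (0.926), Sap130 (0.921) and Eif3f (0.920). All 10 were highest in CFA6D replicate 6, the library that was highest for 7 of the 9 genes. These values describe libraries that share depth and group, and carry no test.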
